A study of Homo sapiens with 52 samples.

Results

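The proteasome genes were followed through 10 days of retinoic acid in H1 human embryonic stem cells. They were taken as every probe set on the A and B chips that names 1 gene whose symbol is PSM, then A, B, C, D or E, then a number, with PSMB8 and PSMB9 left out. The rule found 66 probe sets of 35 genes among 44928 probe sets, of which 34503 name 1 gene. Of the 66, 60 probe sets of 34 genes were scored present (detection p under 0.05) on at least 2 of 26 arrays and were tested with 21540 probe sets in all. PSMA8, the testis form of a core subunit, was present on no array. The other 5 probe sets that were not tested belong to PSMA3, PSMB1, PSMB7, PSMD4 and PSMD5, each of which has another that was. PSMA6 and PSME2, which share their probe sets with other genes, and PSMB11, PSMC5, PSMD7 and PSMD13 are not analysed here.

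RNA was profiled in 13 groups of 2 biological replicates each. Nothing says that replicates were separate cultures, so p-values measure the spread between these samples. H1 cells, grown without feeder cells on Matrigel in mTeSR medium, received 5 µM retinoic acid and were sampled on each of days 1 to 10, and before treatment on day 0. Untreated, undifferentiated H9 and HUES8 cells, also human embryonic stem cell lines, were each sampled in 2 replicates. Because H1 cells without retinoic acid were sampled on day 0 and on no later day, the agent and time in culture cannot be told apart. The course describes 1 line. Each RNA was hybridised to an HG-U133A and an HG-U133B chip, giving 52 arrays. Signals are MAS5 values on a linear scale, set by the submitters to the same trimmed mean (500.2 to 500.3) on every array, so a signal gives a gene's level relative to the rest of that array.

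The proteasome degrades proteins that carry ubiquitin chains. Its barrel-shaped core particle stacks rings of alpha subunits (PSMA), which gate the entrance, on rings of beta subunits (PSMB), some of which cut the protein. The regulatory cap has a base, whose ATPases (PSMC) and scaffolds unfold the substrate and bind ubiquitin, and a lid, whose subunits surround the enzyme that removes the chain. Dedicated chaperones assemble the base and then leave, and activators (PSME) open the core without needing ubiquitin. Embryonic stem cells are known for high proteasome activity.

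Many proteasome genes are transcribed under the factor NFE2L1 through antioxidant response elements and under NF-Y through CCAAT boxes, so both were searched in RefSeq promoters (GRCh38.p14, 250 bases before to 50 after each start). A promoter of 29 of the 34 genes was in the table. The letters TGACNNNGC, the core of the antioxidant response element, were found on either strand in 9 of the 29 (31.03%), against 13.6% of all 27305 promoters of that length. CCAAT was found on either strand in 14 of the 29 (48.3%), against 35.7% of all promoters. In PSMD14, 2 CCAAT matches on opposite strands share bases. Promoters of 3 genes that fell and 2 that rose in the comparisons below are shown, since the response element letters (in capitals, as is CCAAT) stand in genes of both directions. They lie at chr2:231056617-231056916 (plus strand, PSMD1), chr17:38752491-38752790 (plus strand, PSMB3), chr17:67366528-67366827 (minus strand, PSMD12), chr12:121888540-121888839 (plus strand, PSMD9) and chr14:24135944-24136243 (plus strand, PSME1).
PSMD1: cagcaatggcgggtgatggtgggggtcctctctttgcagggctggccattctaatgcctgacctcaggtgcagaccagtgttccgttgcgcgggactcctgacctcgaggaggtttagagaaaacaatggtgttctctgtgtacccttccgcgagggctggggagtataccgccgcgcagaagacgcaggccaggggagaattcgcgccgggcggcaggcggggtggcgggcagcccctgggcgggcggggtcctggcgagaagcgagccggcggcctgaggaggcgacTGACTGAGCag
PSMB3: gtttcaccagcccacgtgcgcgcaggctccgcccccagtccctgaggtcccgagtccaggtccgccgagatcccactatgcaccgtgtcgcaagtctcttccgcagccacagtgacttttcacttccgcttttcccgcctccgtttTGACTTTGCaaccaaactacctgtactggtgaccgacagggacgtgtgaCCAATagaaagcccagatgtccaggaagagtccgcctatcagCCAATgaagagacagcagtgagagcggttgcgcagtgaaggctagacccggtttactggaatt
PSMD12: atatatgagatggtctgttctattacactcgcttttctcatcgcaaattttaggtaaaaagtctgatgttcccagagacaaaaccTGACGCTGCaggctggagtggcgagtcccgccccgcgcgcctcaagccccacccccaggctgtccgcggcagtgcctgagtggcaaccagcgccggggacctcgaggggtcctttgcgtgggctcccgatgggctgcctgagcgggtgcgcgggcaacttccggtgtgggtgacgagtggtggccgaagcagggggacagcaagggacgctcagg
PSMD9: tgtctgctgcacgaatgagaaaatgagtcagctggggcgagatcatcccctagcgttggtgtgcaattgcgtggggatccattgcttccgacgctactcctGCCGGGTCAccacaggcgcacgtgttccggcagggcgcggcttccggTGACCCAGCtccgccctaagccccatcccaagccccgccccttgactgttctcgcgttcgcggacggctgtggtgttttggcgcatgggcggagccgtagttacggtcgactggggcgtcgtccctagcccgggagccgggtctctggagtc
PSME1: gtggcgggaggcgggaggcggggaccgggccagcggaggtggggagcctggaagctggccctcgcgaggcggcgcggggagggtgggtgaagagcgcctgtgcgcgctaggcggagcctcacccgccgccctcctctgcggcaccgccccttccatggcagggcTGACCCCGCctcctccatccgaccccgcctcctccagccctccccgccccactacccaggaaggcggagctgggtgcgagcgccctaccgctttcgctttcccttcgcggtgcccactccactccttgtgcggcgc
In PSMB3, the response element letters begin at position -104 from the start, and CCAAT begins at -55 and -13. In PSMD1 the response element letters begin at position 40. A match of letters is a description and not evidence that a factor binds.

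Pluripotency markers fell over the course. Of 10 pluripotent stem cell markers, 9 were lower and 1 higher on days 8 to 10 than in the untreated lines. Their summed signal was 25340 to 38828 in samples of days 8 to 10 and 71411 to 83838 in the untreated lines. The log2 change was -5.20 ± 0.25 for NANOG, -2.78 ± 0.16 for DNMT3B and -3.20 ± 0.19 for SOX2 (SE). All 6 measured trophoblast markers rose, with summed signals of 7805 to 10715 on days 8 to 10 and 218 to 500 in the untreated lines. Of 7 fibroblast and matrix markers 5 rose and 1 fell, of 5 measured neural markers 1 rose and 2 fell, and 4 of 5 blood markers had no tested probe set. The part of these cell-type changes in the results below was not tested, and in bulk RNA a smaller share of cells that express a gene and less RNA per cell cannot be told apart. Between 44.8% and 54.2% of A chip probe sets and 31.1% to 40.1% of B chip probe sets were present on an array. The ratio of 3-prime to 5-prime ACTB signal, which rises as RNA or labelling shortens, was 1.45 to 1.89 on A chips of days 8 to 10 and 1.17 to 1.32 on those of the untreated lines. On B chips it was 1.57 to 1.98 on days 8 to 10 and 1.31 to 1.57 in the untreated lines. The same ratio for GAPDH overlapped between these groups. On A chips it was 0.78 to 0.91 on days 8 to 10 and 0.80 to 0.88 in the untreated lines. On B chips it was 0.92 to 0.99 and 0.92 to 1.00.

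Most proteasome genes were lower on days 8 to 10 than in the untreated lines. Days 8 to 10 of H1 (6 samples) were set against the untreated lines (H1 day 0, H9 and HUES8, 6 samples) with limma over all probe sets, and a probe set was called at a Benjamini-Hochberg adjusted p under 0.05. Of the 60 proteasome probe sets 38 were called lower and 2 higher. Among all tested probe sets 42.3% were called, 19.3% lower and 23% higher. Each gene was also counted once, by its probe set of highest mean signal, with probe sets whose names end in _x_at taken last. The chosen probe sets of PSMA1, PSMA7 and PSME3 are therefore not their brightest. By that count 25 of 34 genes were called lower, 2 higher (PSMD9 and PSME1) and 7 neither. Of all 12201 genes counted in the same way, 22.1% were called lower and 23.1% higher. A gene that was not called is not shown to be unchanged. The median change of the 34 genes was -0.48 on the log2 scale, or 28.3% lower, against a median of 0.00027 over all genes. Every sample of days 8 to 10 was below every untreated sample in 25 of the 60 probe sets and above it in 1, against 9.64% and 12.5% of all tested probe sets.

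The calls depended on whether the ACTB ratio was in the fit. With the log2 ACTB ratio of each array in the fit, 10 of the 60 probe sets were called, 8 lower and 2 higher. The median change of the 60 was -0.31, against 0.02 over all tested probe sets. In that fit 21.6% of all tested probe sets were called in either direction. The members' share (16.7%, with 13.3% lower) was below that of all, while without the covariate it was above (66.7% against 42.3%). The share of all called lower in that fit was not counted, so these shares do not compare the falls. The ACTB ratio did not overlap between the arrays of days 8 to 10 and those of the untreated lines on either chip. Its part and that of time in retinoic acid cannot be told apart, and neither fit gives a corrected value. The GAPDH ratio, which overlapped, was not used as a covariate. The 8 lower probe sets were of PSMD1 and PSME3, each by 2 probe sets, and of PSMA2, PSMC1, PSMC3 and PSME4, and the 2 higher ones were of PSMD9 and PSME1. Without the day 10 arrays, an alternative chosen after seeing the data, 29 were called lower and 2 higher (51.7%, against 33.9% of all). Against H9 and HUES8 alone, also chosen after seeing the data, 35 were called lower and 1 higher (60%, against 40.6% of all).

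**Figure D1:**
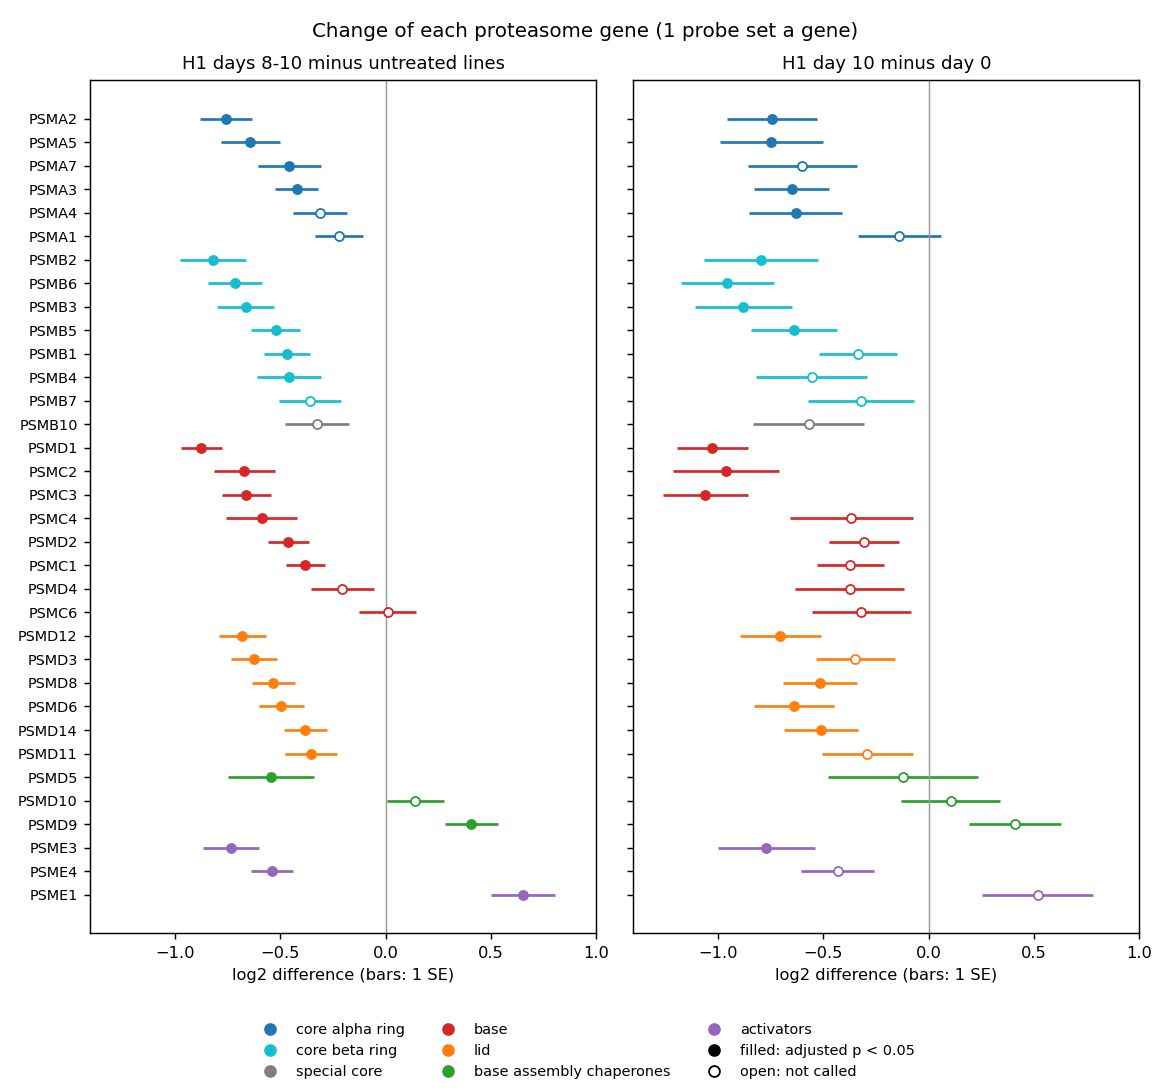
Log2 change of each of the 34 proteasome genes by 1 probe set a gene, with H1 days 8 to 10 minus the untreated lines at left and H1 day 10 minus day 0 at right. Points are limma estimates, bars are 1 SE, colours mark the subunit class and filled points have an adjusted p under 0.05. Most points lie left of 0, and PSMD9, PSMD10 and PSME1 lie right of it in both panels.

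All 6 measured alpha ring genes had negative changes on days 8 to 10, and 4 were called. PSMA2 averaged 0.76 ± 0.12 lower on the log2 scale (SE, adjusted p = 5.2e-05 in limma). Its signal was 4266 to 6229 (median 5172) on days 8 to 10 and 7494 to 9872 (median 8601) in the untreated lines, with no overlap. PSMA5 fell by 0.64 ± 0.14 (adjusted p = 0.00096 in limma), PSMA7 by 0.46 ± 0.15 and PSMA3 by 0.42 ± 0.10. PSMA4 at -0.31 ± 0.13 and PSMA1 at -0.22 ± 0.11 were not called. At day 10 relative to day 0, PSMA1 read -0.14 ± 0.20, and -0.14 to -0.03 across its 3 probe sets.

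Of the 7 beta ring genes 6 were called lower on days 8 to 10, PSMB7 being the exception. PSMB6, the subunit that cuts after acidic residues, had signals of 2638 to 3940 (median 3399) on days 8 to 10 and 5140 to 6081 (median 5381) in the untreated lines. The groups did not overlap, and the change was -0.71 ± 0.13 (SE, adjusted p = 0.000129 in limma). PSMB5, which cuts after hydrophobic residues and is the main target of proteasome inhibitor drugs, had signals of 2810 to 4146 (median 3666) on days 8 to 10 and 4598 to 5649 (median 4972) in the untreated lines, also without overlap. It fell by 0.52 ± 0.12. PSMB7, which cuts after basic residues, changed by -0.36 ± 0.15 and missed the threshold (adjusted p = 0.0544 in limma). The structural beta subunits PSMB2, PSMB3, PSMB1 and PSMB4 fell by 0.82, 0.66, 0.47 and 0.46. PSMB10, which replaces PSMB7 in the immunoproteasome, changed by -0.32 ± 0.15 and was not called.

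In the base 6 of 8 genes were called lower, PSMC6 and PSMD4 being the exceptions by their brightest probe sets. PSMD1, a large scaffold of the base, had signals of 1946 to 2589 (median 2107) on days 8 to 10 and 3296 to 4582 (median 3891) in the untreated lines. Its groups did not overlap, and it was 45.5% lower, a log2 change of -0.87 ± 0.10 (SE, adjusted p = 4.72e-07 in limma). A second PSMD1 probe set gave -0.77 ± 0.10. Among the ATPases PSMC2, PSMC3, PSMC4 and PSMC1 were lower by 0.67, 0.66, 0.59 and 0.38. Part of the PSMC4 difference lies between the untreated lines. PSMC4 was 0.95 higher in HUES8 and 0.44 higher in H9 than in H1 day 0, neither called. At day 10 against day 0 it read -0.37 ± 0.29 and was not called. PSMD2, the scaffold that docks shuttle proteins bearing ubiquitin-like domains, fell by 0.46 ± 0.10. PSMC6, another ATPase, had signals of 1183 to 2289 (median 1871) on days 8 to 10 and 1058 to 2358 (median 1835) in the untreated lines, a change of 0.01 ± 0.14. The ubiquitin receptor PSMD4 was not called by its brightest probe set (-0.21 ± 0.15), while its other 2 were called lower at -0.36 and -0.35.

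All 6 measured lid genes with PSM symbols were called lower on days 8 to 10, between -0.68 for PSMD12 and -0.35 for PSMD11. SEM1, a small lid subunit outside the naming rule, changed by -0.19 ± 0.11 and was not called. It is counted below among the factors bound to the proteasome. PSMD12, a scaffold of the lid, had signals of 780 to 1351 (median 961) on days 8 to 10 and 1373 to 2096 (median 1602) in the untreated lines. The highest late sample was just below the lowest untreated one. A second, dimmer PSMD12 probe set changed by -0.37. Its signals were 263 to 441 on days 8 to 10 and 359 to 636 in the untreated lines, which overlapped. Of the 8 lid probe sets 7 were called lower. PSMD14, the enzyme that removes ubiquitin chains, had signals of 2149 to 2967 (median 2650) on days 8 to 10 and 2890 to 4148 (median 3283) in the untreated lines. Those ranges overlapped, and the change was -0.38 ± 0.10 (SE, adjusted p = 0.00475 in limma). PSMD3, PSMD8 and PSMD6, which form the lid's horseshoe with PSMD12 and PSMD11, fell by 0.62, 0.53 and 0.49. PSMD11, known for its high level and its link to proteasome activity in human embryonic stem cells, fell by 0.35 ± 0.12 and by 0.75 ± 0.14 in its second probe set.

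The base assembly chaperones did not move as one. PSMD9 had signals of 640 to 921 (median 772) on days 8 to 10 and 450 to 712 (median 584) in the untreated lines, ranges that overlapped. It was 0.41 ± 0.13 higher (SE, adjusted p = 0.0131 in limma). The call was lost with quantile normalization (0.33, adjusted p = 0.0627 in limma) and against H9 and HUES8 alone (0.30, adjusted p = 0.0935 in limma). PSMD5 was 0.54 ± 0.20 lower (adjusted p = 0.0387 in limma) and its groups overlapped. Part of this difference lies between the untreated lines. PSMD5 was 0.85 higher in HUES8 and 0.22 higher in H9 than in H1 day 0, neither called. At day 10 against day 0 it read -0.12 ± 0.35 and was not called. PSMD10, also studied as the oncoprotein gankyrin, changed by 0.14 ± 0.13 and was not called.

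The activators split in direction. PSME3, a nuclear activator, had signals of 421 to 625 (median 515) on days 8 to 10 and 721 to 1006 (median 843) in the untreated lines, without overlap, and fell by 0.73 ± 0.13 (SE, adjusted p = 0.000163 in limma). Its other 3 probe sets were also called lower, at -1.13, -0.49 and -0.45. PSME4, a large activator known from male germ cells and DNA repair, fell by 0.54 ± 0.10 without overlap by the brightest of its 3 probe sets. A dimmer one was called lower at -0.44 ± 0.17, and the dimmest read -0.009 ± 0.17 and was not called. In both of these the groups overlapped. PSME1, an interferon-induced activator subunit, had signals of 2015 to 2861 (median 2406) on days 8 to 10 and 1077 to 2004 (median 1567) in the untreated lines. It was the single gene whose late samples all lay above every untreated sample, and it was 0.65 ± 0.15 higher (adjusted p = 0.00169 in limma). Of 11 measured interferon and antigen presentation genes 4 were called higher and 3 lower, against 23.1% higher and 22.1% lower of all genes. IRF9 (1.37), TAP1 (0.74), TAPBP (0.74) and IRF1 (0.61) were higher, and IFITM1 (-2.48), ISG15 (-1.80) and HLA-B (-0.78) lower. The median change of the 11 was 0.13. Their summed signal, which weighs bright genes most, was 12221 to 15314 on days 8 to 10 and 19469 to 35512 in the untreated lines. Their part in the change of PSME1 was not tested.

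Day 10 was also set against day 0 within H1, a comparison that shares its samples with the one above. Of the 60 probe sets 22 were called lower and 0 higher in limma, against 21.7% of all tested probe sets called (10.4% lower, 11.3% higher). At an unadjusted p under 0.05, 34 were lower and 1 higher. The share of all probe sets under that threshold was not counted, here or for the other unadjusted counts below. Of the 34 genes 16 were called lower, against 12% lower and 12.4% higher of all genes, and 31 had negative changes with a median of -0.53, against 0.003 over all genes. The core genes had a median change of -0.64 (8 of 13 called lower), the lid -0.51 (4 of 6), the base -0.37 (3 of 8) and the activators -0.43 (1 of 3). The base assembly chaperones had a median of 0.10 (0 of 3). This order of the classes was not kept elsewhere. On days 8 to 10 against the untreated lines the medians were -0.52 in the base, -0.51 in the lid and -0.47 in the core, and over all probe sets at day 10 they were -0.56, -0.55 and -0.55. No test of the difference between classes was made, and their day 10 ranges by 1 probe set a gene overlapped: -0.96 to -0.14 in the core, -1.06 to -0.31 in the base and -0.70 to -0.29 in the lid.

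PSMC3, an ATPase of the base, had signals of 1240 and 960 on day 10, against 2091 and 2469 on day 0. It was 51.98% lower, a log2 change of -1.06 ± 0.20 (SE, n = 2 each, adjusted p = 0.000766 in limma). PSMD1 had signals of 1946 and 2139 on day 10, against 3783 and 4556 on day 0, a change of -1.02 ± 0.17. PSMC2 had signals of 2538 and 1934 on day 10, against 3808 and 4888 on day 0, a change of -0.96 ± 0.25. In each of these genes both day 10 samples were below both day 0 samples. PSMB6 had signals of 3265 and 2638 on day 10, against 5323 and 6081 on day 0, and fell by 0.96 ± 0.22. PSMB3 had signals of 4081 and 2919 on day 10, against 6025 and 6678 on day 0, and fell by 0.88 ± 0.23. The day 10 samples of both beta genes were lower by more than the gap between replicates.

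PSMB2 (-0.79), PSME3 (-0.77), PSMA5 (-0.75), PSMA2 (-0.74), PSMD12 (-0.70), PSMA3 (-0.65), PSMB5 (-0.64), PSMD6 (-0.64), PSMA4 (-0.63), PSMD8 (-0.51) and PSMD14 (-0.51) were also called lower at day 10. PSMA7 (-0.60, with its other probe set called at -0.57), PSMB10 (-0.57), PSMB4 (-0.55), PSME4 (-0.43), PSMB7 (-0.32), PSMD2 (-0.31), PSMD11 (-0.29) and PSMD5 (-0.12) had negative changes that were not called. The 7 further genes with negative changes (PSMA1, PSMB1, PSMC1, PSMC4, PSMC6, PSMD3 and PSMD4) lay between -0.37 and -0.14 and were not called by these probe sets. PSME1 was at 0.52 ± 0.26 and not called at day 10: its signals were 2619 and 2015 on day 10, against 2004 and 1284 on day 0. The count of 22 fell without any 1 of its samples, where the lone sample is assumed to vary like the other groups. The median change of the 60 probe sets was -0.51 and -0.48 without day 10 replicates 1 and 2. It was -0.58 and -0.47 without day 0 replicates 1 and 2, and -0.52 with all samples. Over all tested probe sets the medians in these fits were 0.075, 0.009, 0.043 and -0.015. With the ACTB ratio as covariate 4 probe sets were called, 2 of PSMD1 and 1 each of PSMC3 and PSME3. That is 6.67% of the members, all lower, below the 11.6% of all tested probe sets called in either direction in that fit. Without the covariate their share was above that of all (36.7% against 21.7%). The median change with the covariate was -0.35, against 0.0038 over all tested probe sets.

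**Figure D2:**
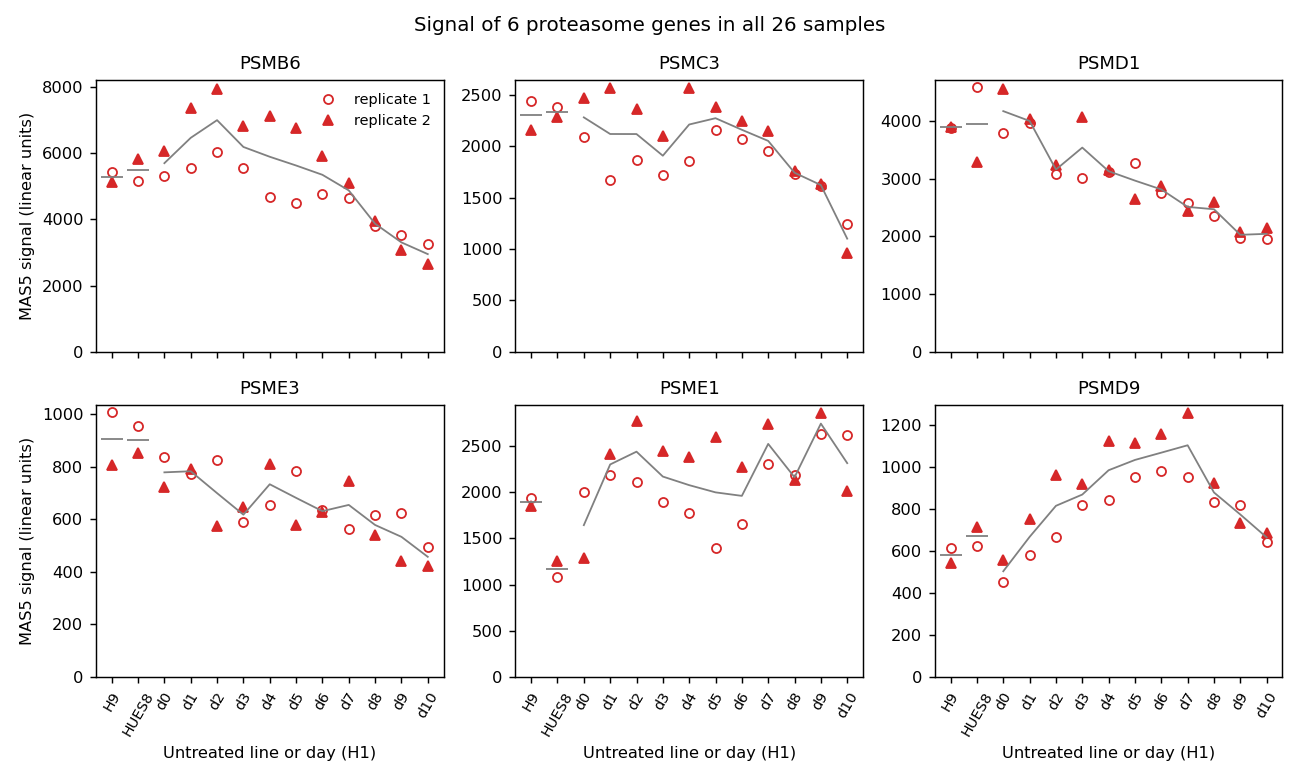
MAS5 signal on a linear axis in all 26 samples for PSMB6, PSMC3, PSMD1, PSME3, PSME1 and PSMD9, with H9 and HUES8 at left and H1 days 0 to 10 in order. Symbols mark replicates 1 and 2, and lines and bars mark the mean of the 2. PSMC3 and PSMB6 are lowest on day 10 in both replicates, PSMD1 declines gradually over the course, and PSMD9 is highest on days 5 to 7.

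Samples numbered 1 and 2 differed in when the genes read lower. In replicate 2 the median of the 34 genes, relative to the mean of day 0, was 0.27 on day 1, 0.08 on day 3, 0.07 on day 5, -0.09 on day 7, -0.32 on day 8 and -0.55 on day 10. In replicate 1 it was -0.13 on day 1, -0.25 on day 3, -0.20 on day 5, -0.30 on day 7, -0.35 on day 8 and -0.42 on day 10. Samples numbered 2 were thus lower after day 7, while those numbered 1 were already lower by day 3 and changed less after day 7. The numbers are not known to mark 2 cultures followed over time. The median of replicate 2 minus replicate 1 was 0.21 on day 7 and -0.009 on day 8. The drop after day 7 falls where this offset was lost, and the 2 cannot be told apart. The mean of the replicates was 0.07 on day 1, -0.07 on day 5, -0.20 on day 7 and -0.48 on day 10. On day 1, 0 of 60 probe sets were called in limma, against 0.984% of all (0.757% higher, 0.227% lower), and 4 had an unadjusted p under 0.05. On day 5, 1 was called higher (PSMD9) and 1 lower (PSMD1), against 8.66% of all (5.17% higher, 3.49% lower). On day 10 relative to day 5, 9 were called lower and 0 higher in limma, against 10.2% of all (5.89% lower, 4.35% higher). At an unadjusted p under 0.05, 25 were lower and 1 higher. With the ACTB covariate 1 was called (1.67%, against 5.41% of all in either direction), and the median was -0.30, against 0.04 over all. Without day 10 replicate 2 fewer than 9 were called, and the median was -0.41, against 0.02 over all. Fitted as a line over the 11 H1 days, 33 probe sets fell and 2 rose, against 41% of all called (18.8% lower, 22.2% higher). The members' share in either direction was 58.3% in that fit, and with the ACTB covariate it was 23.3%, against 27.3% of all. The median slope with the covariate was -0.038 per day, against 0.0023 over all.

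A test of any difference among the 11 H1 days called 9 of the 60 probe sets (15%), against 23.1% of all tested probe sets. Which share was higher depended on the setting: centring on control probe sets called 15 (25%, against 20.3% of all), and the replicate number as a block called 19 (31.7%, against 30.4%). The 9 were PSMD1 by 2 probe sets, PSMA2, PSMA7, PSMB3, PSMB6, PSMC3, PSMD9 and PSMD11. PSMD1 led them (adjusted p = 0.000489 and 0.000259 in limma's F test). It was also the single gene called lower on day 5, where its second probe set read 2460 and 2530 on day 5, against 3856 and 4637 on day 0, a called change of -0.76 ± 0.17.

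PSMD9 followed another course. Its signals were 450 and 554 on day 0, 580 and 751 on day 1, 843 and 1122 on day 4, 952 and 1111 on day 5, 949 and 1254 on day 7, 833 and 921 on day 8 and 640 and 686 on day 10. Both day 5 samples were above both day 0 samples, a change of 1.04 ± 0.22 (SE, n = 2 each, adjusted p = 0.00365 in limma). By day 10 the change was 0.41 ± 0.22 and not called. A second, dimmer PSMD9 probe set read -0.09 ± 0.61 on day 5, so the peak rests on 1 probe set.

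**Figure D3:**
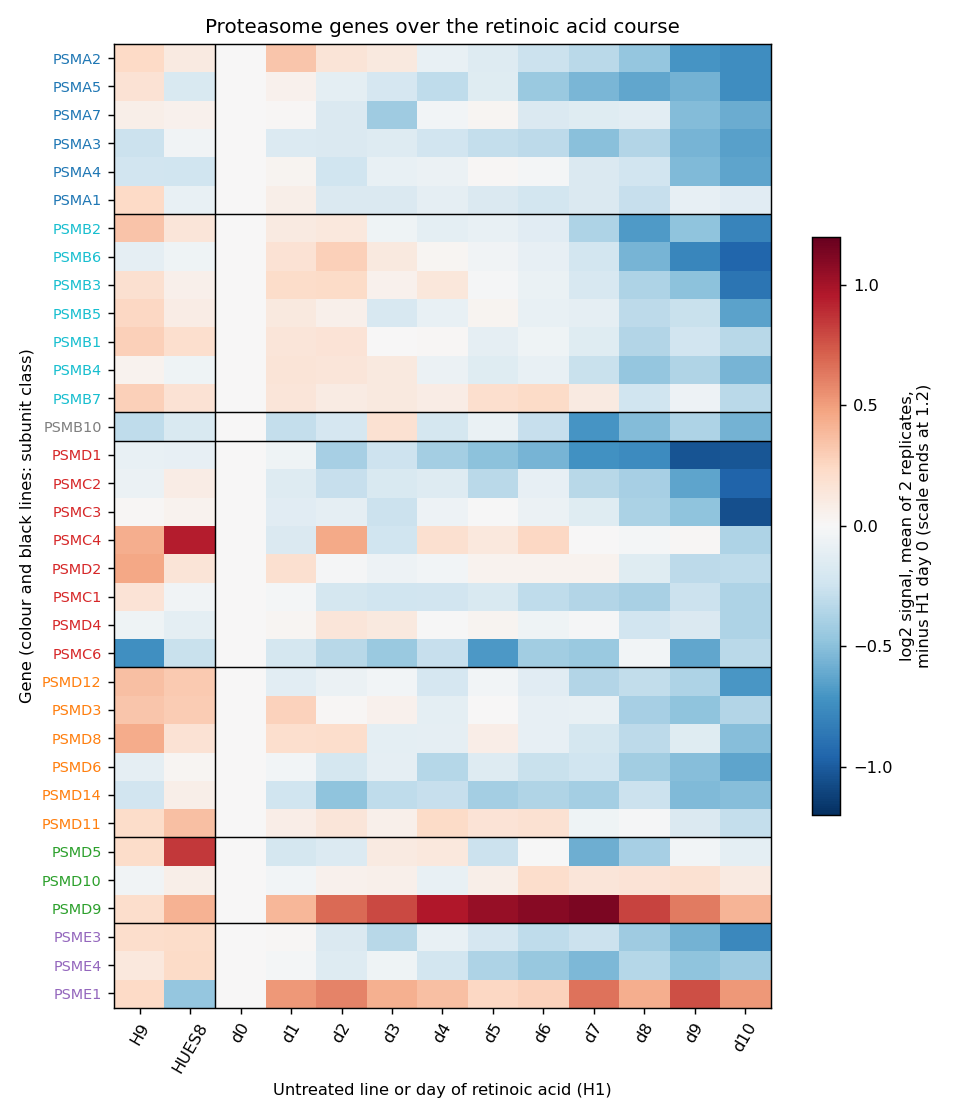
Mean log2 signal of 2 replicates minus that of H1 day 0 for 34 proteasome genes (rows, grouped by class) in H9, HUES8 and H1 days 0 to 10 (columns). Blue is below day 0 and red above, with the colour scale ending at 1.2. In these means blue deepens from day 8 in most core, base and lid genes, and PSMD9 and PSME1 are red through the course.

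The replicates differed in a way the groups do not explain. In each of H1 days 0 to 7, replicate 2 was above replicate 1 in 27 to 31 of the 34 genes, by a median of 0.37 on day 1 and 0.21 on day 7. Over all genes the share was 47.1% to 54.6% on those days. On days 8 to 10 and in H9 and HUES8, replicate 2 was above replicate 1 in 11 to 16 of the 34 genes. The mean log2 signal of the control probe sets was also higher in replicate 2, on both chips, on those days and on days 8 to 10. What made the replicates differ on days 0 to 7 was not tested.

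**Figure D4:**
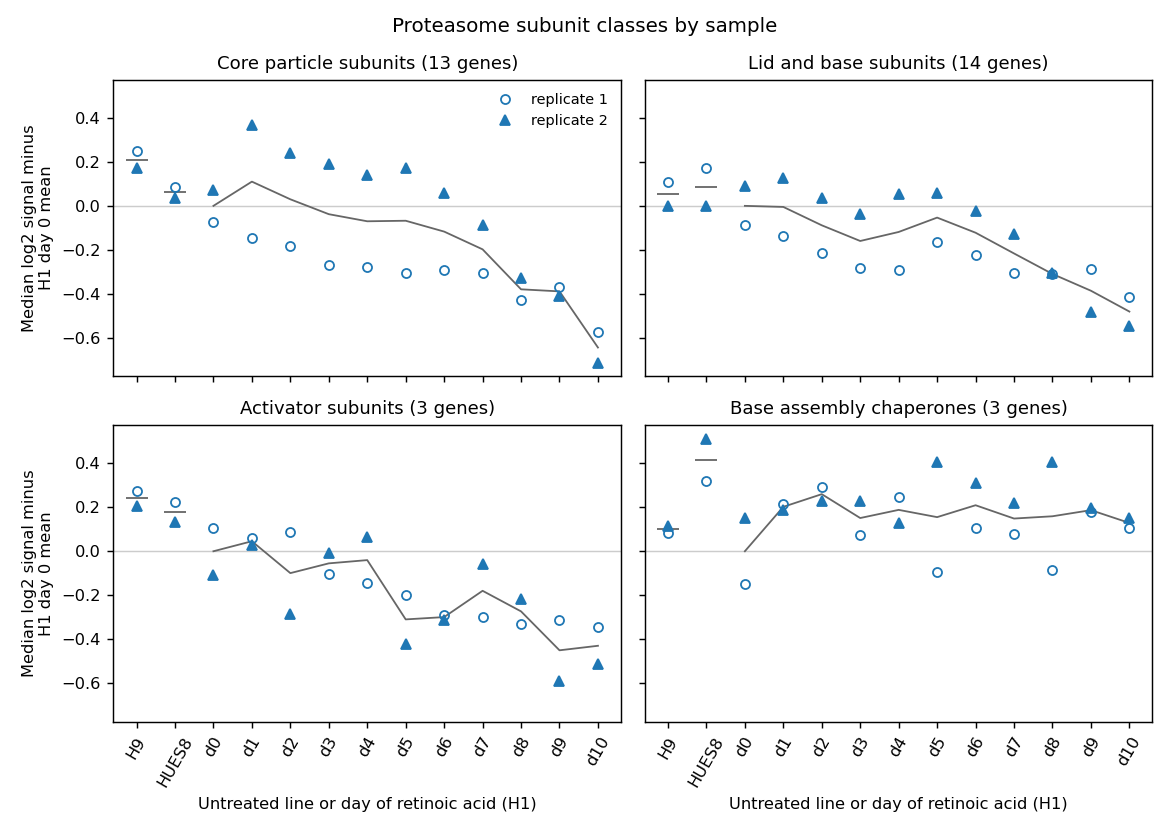
Median log2 signal of the genes of each class minus the H1 day 0 mean, by sample, in H9, HUES8 and H1 days 0 to 10. Symbols mark replicates 1 and 2 and lines or bars join the group values. Core replicate 2 lies above replicate 1 from day 0 to day 8, both are lowest on day 10, and the chaperones show no such fall.

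Few differences were called among the untreated lines. Of the 60 probe sets 0 were called between HUES8 and H1 day 0 in limma, against 0.176% of all (0.0836% higher, 0.0929% lower), and 5 had an unadjusted p under 0.05. Between H9 and H1 day 0, 1 was called higher, against 4.26% of all (1.75% higher, 2.52% lower). The median change of the 34 genes was 0.18 in H9 and 0.07 in HUES8 over H1 day 0. The 1 call was a B chip probe set of PSMA5, with signals of 422 and 369 in H9, against 21.1 and 85.7 in H1 day 0. It was scored present on 1 of the 2 H9 arrays, on neither day 0 array and on 2 arrays in all. That is the fewest the filter allows, so without the H9 array it would not have been tested. The call (adjusted p = 0.0130 in limma) is therefore not independent of the filter. Its mean H9 signal was 4.71-fold above the lowest present signals of the day 0 arrays. That mean includes the H9 array not scored present, so the value is not a lower bound. The brighter PSMA5 probe set read 6146 and 5520 in H9, against 5168 and 5175 in H1 day 0, and was not called. PSMC6 was at -0.74 in H9 relative to H1 day 0 and was not called.

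Proteasome genes varied together over these samples. Over the 13 group means the median pairwise correlation of 33 genes on the A chip was 0.63, against 0.0026 among 6814 genes of that chip. Over the 26 samples the medians were 0.52 and 0.0042. The points share array scaling and the late fall, so the values describe these arrays. PSME3 (0.81), PSMB3 (0.81) and PSMB5 (0.80) had the highest median correlation with the other members. PSMD10 (-0.51), PSME1 (-0.44), PSMD9 (-0.25) and PSMC6 (-0.08) had negative ones.

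Probe sets of 1 gene mostly moved alike. Of the 16 genes with several tested probe sets, the day 10 changes lay within 0.5 of each other in 12 and differed by over 1 in 3. PSMA5 read -0.75 in its bright probe set and 1.83 in the dim one described above. PSMB2 read -0.79 by its brightest probe set and 0.86 by a dim one, and PSMC2 read -0.96 by its brightest and 0.02 and -1.51 by dimmer ones. The same PSMB2 probe set sits on both chips as a control: its log2 signals on the A and B chips correlated at 0.93 over 26 samples, and its late change was -0.49 on A and -0.82 on B.

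Genes that work with the proteasome moved in both directions. The lists below count 1 probe set a gene on days 8 to 10 against the untreated lines, where 22.1% of all genes were called lower and 23.1% higher. Of 9 factors bound to the proteasome, 7 were called lower and 0 higher. ADRM1, a ubiquitin receptor that docks on the base, fell by 1.22 ± 0.11 (SE, adjusted p = 1.88e-08 in limma). UCHL5, a deubiquitinase that docks on ADRM1, fell by 0.46 ± 0.18 and ECPAS, a proteasome adaptor, by 0.40 ± 0.12. Of 7 core assembly factors and inhibitors, 4 were lower and 1 higher. PSMG4, a chaperone of the alpha ring, fell by 1.65 ± 0.21, PSMG3, its relative, by 1.02 ± 0.18 and PSMF1, an inhibitor, by 0.34 ± 0.13. The 1 higher gene was PAAF1, which binds base ATPases, at 0.82 ± 0.12, named after its value was seen.

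Of 8 measured ubiquitin receptors and VCP partners, 4 were lower and 2 higher. VCP, the segregase that hands substrates to the proteasome, fell by 0.78 ± 0.11. The shuttle proteins went both ways. UBQLN2 and RAD23B rose by 0.60 ± 0.11 and 0.53 ± 0.11, UBQLN1 fell by 0.34 ± 0.12, and UBQLN4 was not called (0.25 ± 0.14). UBA1, the main ubiquitin-activating enzyme, fell by 0.83 ± 0.13, and UBA6, the other such enzyme, by 0.46 ± 0.15. Of 9 measured regulators of proteasome gene transcription, 4 were lower and 3 higher, against the same 22.1% and 23.1% of all genes. NFE2L1 fell by 0.75 ± 0.12, and its relative NFE2L2 and the NF-Y subunit NFYA rose by 0.50 ± 0.17 and 0.92 ± 0.15.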

How the data were processed

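The deposited table gives, per the file headers and the submitters' processing notes, a MAS5 signal (an intensity on a linear scale, scaled by the authors to a common target), a detection p-value by the authors' software and a present, marginal or absent call for each probe set on 52 arrays. The 52 call columns were not used, and the MAS5 version is not given in the sources used here. Gene names came from the platform annotation, updated by gene ID, which matched 34466 of the 34503 probe sets that name 1 gene. Another 1597 name several genes and 8828 none.

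Signals were taken to log2 without further normalization. Each chip was fitted in limma 3.58.1 (R 4.3.3) with 1 mean per group and an intensity trend, and p-values were Benjamini-Hochberg adjusted over the probe sets of both chips. Residual degrees of freedom were 13. The fit was tested on simulated data. The number of arrays limits the precision.

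The members and all gene lists were chosen with earlier results of these data known. Values are given for the 20 genes with a call and the largest day 10 change, the largest rise and fall of each class and genes whose probe sets disagree. From each list of partner genes up to 3 called members were named. SEM1, UBQLN1, UBQLN4 and PAAF1 were named besides, after their values were seen. Alternatives covered the filter, a floor, the normalization, the probe sets of a gene, the intensity trend, the samples fitted, the ACTB ratio, a replicate block and leaving out each replicate.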

Additional observations from a re-analysis of the deposited data

How the results depend on the processing

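Among named genes, no called change turned its sign under any alternative run except PSMA5 at day 10 against day 0, which read 0.54 (adjusted p = 0.277 in limma) as the mean of its probe sets, 1 of them dim. With the mean of a gene's probe sets (34 genes), 5 were called in the test over all days, 1 at day 5, 14 at day 10 and 26 on days 8 to 10. With 1 probe set a gene, 1 was called at day 5 and 0 in H9. Centring on control probe sets gave 15 in the test over all days. It moved the median of all probe sets at day 10 to 0.14, on days 8 to 10 to 0.11, at day 5 to -0.13 and between day 5 and day 10 to 0.26, with proteasome medians of -0.51, -0.49, -0.21 and -0.31. With the ACTB ratio as covariate the counts were 4 in the test over all days, 14 for the line over days, 4 at day 10, 1 between day 5 and day 10 and 10 on days 8 to 10. In each of these fits the members' share, counted in either direction, was below that of all probe sets. Their median changes were -0.31 on days 8 to 10 and -0.35 at day 10, against 0.02 and 0.0038 over all. Without the intensity trend 4 were called between day 5 and day 10, and with only the groups compared 0 there and 2 in H9. With the replicate block the counts were 19 in the test over all days, 1 at day 1, 4 at day 5 and 20 between day 5 and day 10. The labels do not say that a number marks a shared culture. Replicate differences over all probe sets correlated at -0.04 to 0.10 between the groups compared, and at 0.04 to 0.31 (median 0.16) over the 28 pairs of H1 days 0 to 7. The numbers were therefore not taken as pairs, although same-numbered samples of days 0 to 7 share the shift in the proteasome genes given above. Leaving out 1 replicate at a time gave 0 to 1 calls at day 1, 1 to 3 at day 5, 6 to 12 at day 10, 0 to 6 between day 5 and day 10, 35 to 40 on days 8 to 10, 6 to 12 in the test over all days, 28 to 36 for the line, 0 to 1 in H9 and 0 in HUES8. The H9 call was lost without H9 replicate 1 or H1 day 0 replicate 1. At day 5, 1 call was left without H1 day 0 replicate 1 or H1 day 5 replicate 2, and between day 5 and day 10, 2 were left without H1 day 5 replicate 2. Of the calls of named genes on days 8 to 10, 440 were kept and 40 lost over these settings. Without the day 10 arrays 6 were called in the test over all days (10%, against 18.4% of all) and 25 for the line (41.7%, against 34.6%). The proteasome probe sets were bright (median log2 signal 11.12, against 8.77 over all tested) and had a smaller SE on days 8 to 10 (median 0.13, against 0.20), which lets smaller changes be called.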
